A study of Homo sapiens with 16 samples.

Results

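Long noncoding RNAs (lncRNAs) that carry N6-methyladenosine (m6A) enrichment were examined in C4-2B and MDV-R cells. A member was any region of the merged peak list whose midpoint lay in an exon of a GENCODE lncRNA gene and outside the span of every protein-coding gene, on chromosomes 1 to 22. Of 36970 merged regions, 35198 lay on these chromosomes and 1715 were members, in 1268 lncRNA genes. A further 1208 regions had their midpoint in a lncRNA exon but inside a protein-coding gene and were left out by the rule.

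C4-2B is a human prostate cancer cell line that is sensitive to enzalutamide, a drug that blocks the androgen receptor. MDV-R was derived from C4-2B by serial passage with enzalutamide and was maintained in the drug, so line and drug exposure could not be told apart. Each line gave 4 immunoprecipitated (IP) libraries, enriched with an m6A antibody, and 4 unenriched input libraries, all taken at day 3, which makes 16 libraries in 4 groups. Titles in the MDV-R group additionally mention T24R2, a name that belongs to a different line, so grouping followed the cell line field. Among 9 prostate marker genes, 7 held a region called in all 4 C4-2B lists and 9 held one in all 4 MDV-R lists. Of 7 genes chosen as markers of the bladder line T24, 5 held no called region in either line, VIM held one in all lists and CD44 held one in a single C4-2B list. The labels do not say whether replicates were separate cultures, so p-values measure the spread between these libraries alone.

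In the cell, m6A is written on RNA by a methyltransferase complex built around METTL3 and METTL14, read by proteins such as those of the YTH family and removed by the demethylases FTO and ALKBH5. The mark is found mostly within the motif DRACH, of which GGAC is the commonest core, and it collects in long exons. LncRNAs carry it too: in MALAT1 it is known to alter RNA structure and the binding of a partner protein. Antibody enrichment shows that methylated fragments lie near a summit, but not which adenosine carries the mark.

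The windows below are shown because the results below turn on them: regions called in every list, in a single line, or with a fold enrichment that differed between lines. Each runs for 50 nt on either side of the median summit, on hg38 and on the strand of the lncRNA, with GGAC in capitals.
LINC00938 (chr12:45726985-45727085, minus strand): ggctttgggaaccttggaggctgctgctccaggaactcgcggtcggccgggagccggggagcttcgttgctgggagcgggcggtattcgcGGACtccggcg
ZMPSTE24-DT (chr1:40257655-40257755, minus strand): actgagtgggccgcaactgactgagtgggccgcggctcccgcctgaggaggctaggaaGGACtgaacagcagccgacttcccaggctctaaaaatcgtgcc
ITPRID2-DT (chr2:181891382-181891482, minus strand): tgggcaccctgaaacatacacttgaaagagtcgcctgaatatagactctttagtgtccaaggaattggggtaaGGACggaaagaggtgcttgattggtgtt
LINC00161 (chr21:28539967-28540067, plus strand): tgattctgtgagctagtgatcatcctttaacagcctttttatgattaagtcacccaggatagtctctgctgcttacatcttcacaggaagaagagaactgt
ENSG00000230454 (chr3:50261217-50261317, plus strand): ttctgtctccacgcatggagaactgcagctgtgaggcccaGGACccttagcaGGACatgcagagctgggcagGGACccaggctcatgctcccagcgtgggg
LINC00174 (chr7:66423583-66423683, minus strand): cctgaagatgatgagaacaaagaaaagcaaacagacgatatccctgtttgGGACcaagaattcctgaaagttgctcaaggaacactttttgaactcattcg
ENSG00000224413 (chr21:46039189-46039289, plus strand): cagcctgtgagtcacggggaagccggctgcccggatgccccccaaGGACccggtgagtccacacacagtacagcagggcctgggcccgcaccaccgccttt
ENSG00000290689 (chr15:84200756-84200856, minus strand): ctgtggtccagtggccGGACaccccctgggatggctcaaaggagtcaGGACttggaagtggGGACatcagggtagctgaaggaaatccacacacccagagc
ENSG00000286427 (chr2:12704161-12704261, minus strand): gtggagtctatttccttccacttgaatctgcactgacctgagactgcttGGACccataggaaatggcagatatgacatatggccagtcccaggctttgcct
SCAMP1-AS1 (chr5:78357449-78357549, minus strand): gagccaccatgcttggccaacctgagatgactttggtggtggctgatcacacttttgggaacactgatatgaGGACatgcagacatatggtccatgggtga
LINC02739 (chr11:59560683-59560783, minus strand): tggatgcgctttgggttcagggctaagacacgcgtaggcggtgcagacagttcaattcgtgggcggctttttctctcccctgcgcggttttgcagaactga
ENSG00000179066 (chr19:35105248-35105348, plus strand): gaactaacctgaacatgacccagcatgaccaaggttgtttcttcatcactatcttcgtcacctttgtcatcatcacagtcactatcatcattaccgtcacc
In the window of ENSG00000286427 the A of GGAC lay 1 nt downstream of the summit, and in that of LINC00174 it lay 2 nt downstream. ENSG00000230454 and ENSG00000290689 each held 3 copies on the annotated strand, which the peaks themselves do not give. LINC00161, LINC02739 and ENSG00000179066 held none in this window, which says only that these letters are absent there.

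Members sat in long exons, and last and single exons held most of them. Their median position was 40.4% of the transcript length from its start. Of the 1715, 847 (49.4%) lay in the last exon of the transcript that held them, 395 in a transcript of a single exon, 301 in a first exon and 172 in an internal exon. By comparison, 33.9% of all exons of canonical lncRNA transcripts were last or single exons. The exon under a member had a median length of 1322 nt, against 176 nt over all canonical lncRNA exons. A midpoint falls more easily into a longer exon, and exons under members include those of non-canonical transcripts. Neither comparison was weighted by length, so whether members favour long, last or single exons beyond that was not tested. Among members in single-exon transcripts, 38.0% were called in all 8 lists, against 24.9%, 26.2% and 23.8% in first, internal and last exons.

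Position along the genome went with recurrence as well. The median distance from a member to the nearest protein-coding gene was 10204 nt. In 306 members (17.8%) the midpoint lay within 1000 nt upstream of a protein-coding gene on the opposite strand, the layout of a divergent promoter, and 131 of these (42.8%) were called in all 8 lists. Of the 419 members more than 50000 nt from any protein-coding gene, 84 were. The 39 members within 5000 nt downstream of a coding gene on its own strand held 2 such regions (5.13%). Across all members the share was 27.5%, close to the 25.3% of all regions on chromosomes 1 to 22. Among regions in exons of protein-coding genes it was 39.5%. These shares are descriptions of the regions.

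By the form of the gene symbol, 700 members lay in genes known by an Ensembl identifier alone, 270 in LINC genes, 269 in genes named as antisense, 204 in genes named as divergent transcripts, 33 in microRNA host genes, 6 in small nucleolar RNA (snoRNA) host genes and 233 in others. Divergent transcripts had the highest share called in all 8 lists among classes of more than 10 members, 72 of 204 (35.3%), and antisense genes followed with 86 of 269 (32.0%). For LINC genes it was 73 of 270 (27.0%), and for genes without a symbol 179 of 700 (25.6%).

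Most lncRNAs held a single member. This was the case for 955 of the 1268 genes, while 228 held 2, 56 held 3 and 29 held 4 or more. Because members were assigned without strand, 48 lay on lncRNA exons of both strands and 65 on exons of more than 1 lncRNA gene. STX18-AS1, a lncRNA transcribed away from the syntaxin gene STX18, held 9 members, the most of any gene. Of these, 3 were called in all 8 lists, 1 in all MDV-R lists and no C4-2B list, and 3 in only 1 or 2 MDV-R lists. ENSG00000242588 held 7, spread over its long last exon and an upstream exon, and 4 were called in all 8 lists. LINC01128 and RIPK2-DT each held 6 with 3 in all 8 lists, and GARS1-DT held 6 with 2. So even within 1 gene the regions ranged from single calls to calls in every list.

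The number of members called differed widely between lists, and 1 library stood apart. In C4-2B replicates 1 to 4 the counts were 588, 1066, 987 and 1022, and in MDV-R replicates 1 to 4 they were 1021, 1127, 1108 and 1155. Replicate 1 of C4-2B was the lowest, with 13191 peaks in all against 23254 to 30645 in the other lists, and it was the only library whose input was shallower than its IP. The mean was 916 ± 221 for C4-2B and 1103 ± 57.8 for MDV-R (SD, n = 4 each), a difference that missed the threshold (exact two-sided permutation test over 70 arrangements, p = 0.0857, where the smallest possible is 0.0286). The IP libraries of both lines had like relative depths, 0.893 to 1.16 of their mean, whereas every MDV-R input was deeper than every C4-2B input, 1.81 to 2.86 against 0.865 to 1.21 on the same scale (exact two-sided permutation test, p = 0.0286). When every list was cut to the length of the shortest, the difference in members called was -1.75 (p = 0.914, exact permutation test). The part of input depth in the counts was not tested.

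**Figure D1:**
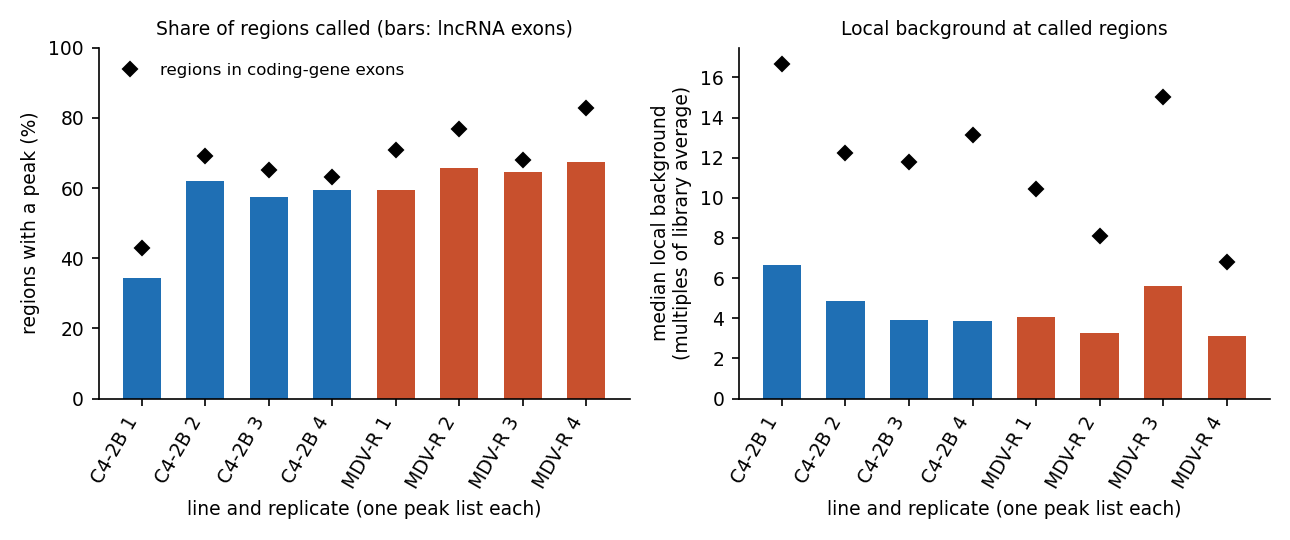
Left, percent of regions with a peak in each of the 8 lists, for members in lncRNA exons (bars, C4-2B blue and MDV-R orange) and for regions in exons of protein-coding genes (diamonds). Right, median local background at called regions in multiples of the library average, with the same symbols; the diamonds lie above the bars in every list in both panels.

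As a share of all regions called on chromosomes 1 to 22, members made up 5.22% to 5.55% in the C4-2B lists, and the MDV-R lists ranged more widely, with the lowest at 4.69%. The means, 5.38% ± 0.154 and 5.07% ± 0.305 (SD, n = 4), overlapped in their ranges and did not pass the test (exact two-sided permutation test, p = 0.114). Without MDV-R replicate 3 the difference of -0.42 percentage points reached p = 0.0286 in the same exact test, so this library decides the call.

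Members were called less often than regions in coding exons, and their summits held fewer fragments. The percent of members called per list ran from 34.3% to 67.3%, and that of the 16165 regions in exons of protein-coding genes from 42.9% to 82.8%. The difference was -8.53 percentage points on average (SD 4.03, n = 8), with members lower in 8 of 8 lists (exact two-sided sign-flip test over 256 arrangements, p = 0.00781, the smallest it can give). Against all other regions on these chromosomes, which include introns, the direction turned, to 3.67 percentage points in favour of members (p = 0.0234, exact sign-flip test). The median number of IP fragments at a called summit was 22 to 33 in members and 36 to 61 in coding exons, lower by 0.94 ± 0.14 (SD, n = 8) on the log2 scale. The local background, which the peak caller takes from input around the summit, was 3.10 to 6.66 times the library average in members and 6.80 to 16.6 times in coding exons. That is a difference of -1.40 ± 0.20 (SD, n = 8) on the log2 scale, negative in 8 of 8 lists (p = 0.00781, exact sign-flip test). Both measures are counts at summits and can differ through RNA abundance as well as through methylation.

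For the fold enrichment, which sets IP fragments against the local background, the difference between the kinds of exon was within its spread over lists. Its median per list was 8.01, 8.70, 9.21 and 8.64 for members in C4-2B and 9.42, 10.3, 8.39 and 10.5 in MDV-R. For coding exons it was 7.06 to 8.66 in C4-2B and 7.79 to 10.9 in MDV-R. The mean log2 difference was 0.04 ± 0.08 (SD, n = 8), positive in 5 lists and negative in 3 (exact sign-flip test, p = 0.188). Among peaks with a -log10 q of at least 5 it was 0.07 and passed (exact sign-flip test, p = 0.0312).

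Summits of members held GGAC more often on the strand of the lncRNA than on the opposite strand. Over the 8 lists, 42.8% to 45.6% of called members had GGAC within 50 nt of the summit, against 23.9% to 27.4% for the opposite strand of the same window and 27.3% to 31.5% for windows of the same width 300 nt away. The excess over the opposite strand was 18.2 ± 1.22 percentage points (SD, n = 8) and was seen in 8 of 8 lists (exact two-sided sign-flip test, p = 0.00781). Coding exon summits held it in 45.8% to 49.7% of windows, 3.47 percentage points more than members on average, in 8 of 8 lists (same exact test, p = 0.00781). Between the lines the share in members did not pass the test, a difference of 0.82 percentage points (exact permutation test, p = 0.229).

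**Figure D2:**
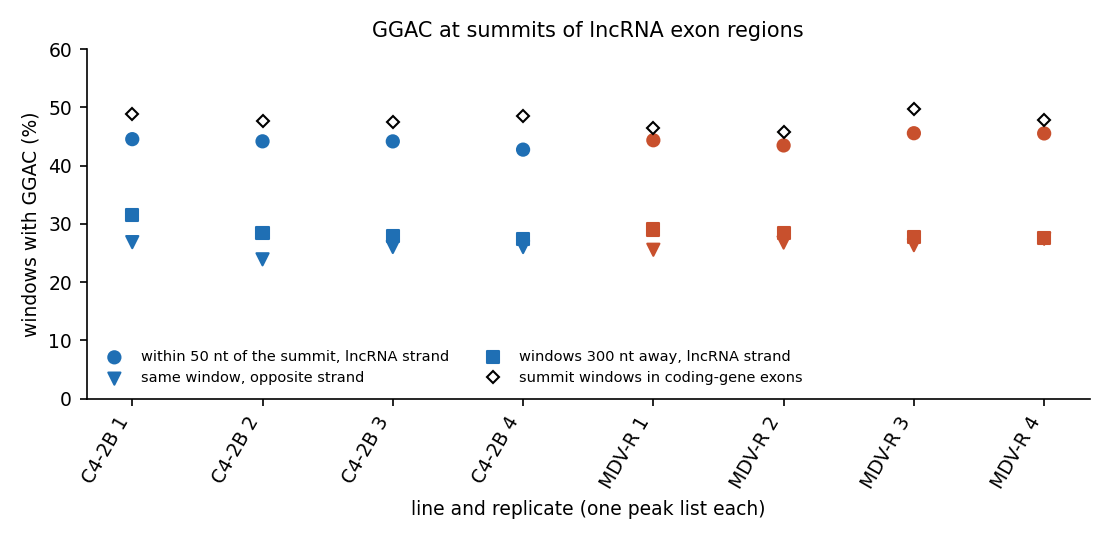
Percent of windows with the letters GGAC in each list, for called members at the summit (circles), on the opposite strand (triangles) and 300 nt away (squares), coloured by line (C4-2B blue, MDV-R orange), and for summits in exons of protein-coding genes (open diamonds). The circles lie between 42.8% and 45.6% and above the triangles and squares in every list.

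By number of lists, 34 members overlapped no peak, 296 were called in 1 list and 472 in all 8. Those called in all 8 lay in 414 lncRNAs. They were longer, with a median of 1145 nt against 315 nt for members called in 1 list, and their median mean fold enrichment was 13.0 against 6.16; a longer region has more chances to overlap a peak. GGAC lay within 50 nt of the median summit in 214 of the 472 (45.3%) and in 111 of the 296 called once (37.5%). A further 144 members were called in every list but C4-2B replicate 1. In all 1034 members were called in both lines, 256 in C4-2B lists alone and 391 in MDV-R lists alone. No share over all regions is given for these counts, and C4-2B replicate 1 had the fewest calls, so they do not set members apart.

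**Figure D3:**
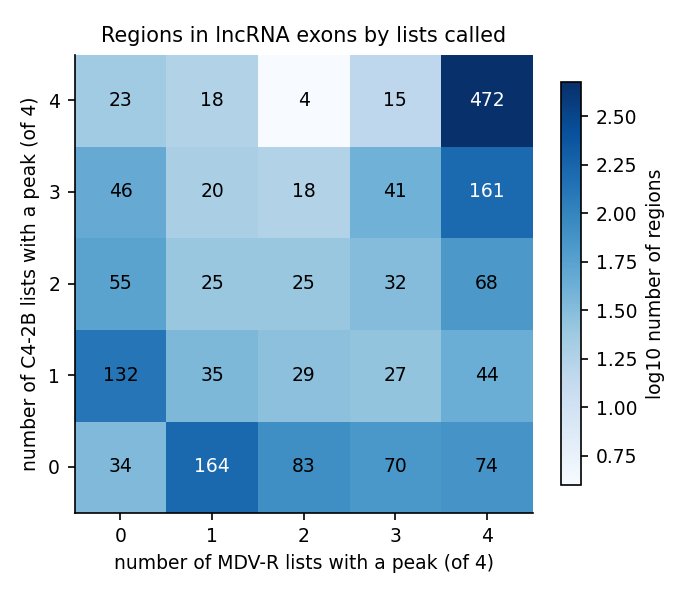
Number of members by how many C4-2B lists (vertical) and MDV-R lists (horizontal) held a peak over them, with the shade on a log10 scale. The corner of 4 and 4 holds 472 members, the corner of 4 C4-2B and 0 MDV-R lists holds 23, and the opposite corner holds 74.

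The strongest members were ranked by the mean percentile of -log10 p within each list. That value grows with IP fragments over the background, so the ranking itself favours well covered regions. ENSG00000288838, on chromosome 9 far from any coding gene, led with 107, 128, 128 and 119 IP fragments in C4-2B and 175, 203, 194 and 165 in MDV-R. Its IP fragments were 1.55-fold higher in MDV-R once scaled (limma adjusted p = 0.000136), and its local background was higher as well, by 1.09 on the log2 scale (adjusted p = 0.0243). ZNF496-DT, divergent to a zinc finger gene, followed with 148, 166, 159 and 149 in C4-2B and 122, 138, 156 and 131 in MDV-R. LINC00938, head to head with the chromatin remodelling gene ARID2, held 163, 165, 157 and 162 in C4-2B and 158, 168, 176 and 156 in MDV-R, and these ranges overlap. Its fold enrichment ran from 12.2 to 20.1 in C4-2B and from 15.0 to 27.0 in MDV-R.

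The other 7 of the 10 strongest were LINC01521, ENSG00000290689, ENSG00000288993, ENSG00000242588, ZMPSTE24-DT, ENSG00000291211 and BAIAP2-DT. The midpoint of the ZMPSTE24-DT region lies 617 nt from the gene of a metalloprotease that processes lamin A. That of LINC01521 lies 517 nt from PATZ1, a transcription factor gene. ZMPSTE24-DT held 138 to 145 IP fragments in C4-2B and 144 to 164 in MDV-R, and BAIAP2-DT held 106 to 127 and 99 to 122. In both, the lines overlapped. LINC01521 held 127 to 151 in C4-2B and 177 to 216 in MDV-R, without overlap (limma adjusted p = 0.000174). The LINC01521 region reaches into PATZ1, however, and its median summit lay inside the span of that coding gene. These fragments can therefore not be credited to the lncRNA alone. ENSG00000290689 and ENSG00000291211 lie in a part of chromosome 15 that is rich in near-identical copies, and because reads with more than 1 location were dropped, their counts are uncertain.

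Calls restricted to a line were few among members and close to their rate elsewhere. Of the 1681 members called at least once, 23 (1.37%) were called in 4 of 4 C4-2B lists and in no MDV-R list, where 1.22% of all called regions on these chromosomes were. In the other direction 74 (4.40%) were called in 4 of 4 MDV-R lists and in no C4-2B list, against 3.67% of all. A single region cannot pass here: 97 members reached the smallest unadjusted p of 0.0286 in Fisher's exact test, and after Benjamini-Hochberg adjustment over 34353 regions the lowest was 0.584. Without C4-2B replicate 1, 63 of 1679 called members (3.75%) were C4-2B-only, against 2.99% of all regions, and 75 (4.47%) were MDV-R-only, against 3.7%. With lists of equal length, the C4-2B lists alone held 22 of 960 called members (2.29%), and those of MDV-R alone held 35 (3.65%). Over all regions that setting gave 3% and 2.67%, so the line with more exclusive calls turned there but not among members.

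Among the C4-2B-only members, LINC00161 on chromosome 21 (chr21:28539402-28540270) was by far the most covered. It held 113, 133, 126 and 125 IP fragments in C4-2B replicates 1 to 4, at fold enrichments of 3.16 to 7.38, and had no peak in MDV-R. Its local background in C4-2B averaged 64.6 times the library average. ENSG00000255240, beside GLYATL1, held 37, 42, 44 and 47 fragments, and ITPRID2-DT (chr2:181891221-181891694), 272 nt upstream of ITPRID2, held 51, 42, 43 and 52. The other 7 named by the rule held between 12 and 33 fragments, and CYTOR, HELLPAR and LCAL1 were among them with 12 to 22. CYTOR, a cytoplasmic lncRNA tied to cell growth, has a near-identical copy in MIR4435-2HG, so its count is uncertain. None of the 23 lay in a lncRNA with another member called in all 8 lists.

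Among the MDV-R-only members, BRPF3-AS1 (chr6:36158127-36159157) ranked first with 55, 52, 62 and 53 IP fragments at fold enrichments of 17.6 to 30.9. ENSG00000230454, downstream of the G protein gene GNAI2, held 51, 49, 60 and 56, and LINC00923 held 43, 45, 58 and 50. LINC00174 held 42, 42, 50 and 40, ATXN1-AS1, divergent to ATXN1, held 32, 40, 39 and 39, and ERVE-1, an endogenous retroviral transcript, held 33, 44, 45 and 44. The other 4, LINC01019, SLC6A10P, ENSG00000174171 and ENSG00000285205, held 30 to 39. Of the 74, 9 lay in a lncRNA with another member called in all 8 lists. Over all line-only members the median number of fragments at a summit was 17 in either line, against 42 for members called in all 8 lists.

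The fold enrichment was then compared between lines for the 8890 regions on these chromosomes that were called in all 8 lists and had recoverable values, which include all 472 such members. Differences are MDV-R minus C4-2B on the log2 scale, each list centred on its median. The fold enrichment and the local background both draw on input, and every MDV-R input was deeper than every C4-2B input. Line and input depth can therefore not be told apart in these measures. Of the members, 3 were higher (0.636%) and 10 lower (2.12%) in MDV-R with limma at an adjusted p of 0.05, against 0.866% and 1.87% of all regions. Without centring, which moves the median of all regions by 0.44, the counts were 14 higher and 2 lower. The median difference was -0.07 in members and 0.04 over all regions. These counts rest on single libraries: without MDV-R replicate 3 they were 5 and 18, without MDV-R replicate 4 they were 4 and 4, without MDV-R replicate 1 they were 1 and 6, and without MDV-R replicate 2 they were 2 and 6.

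ENSG00000179066, an unnamed lncRNA on chromosome 19 (chr19:35104423-35105666), fell the most. Its IP fragments were 37, 48, 37 and 41 in C4-2B and 7, 15, 8 and 7 in MDV-R. The fold enrichment was 15.2, 33.9, 19.2 and 14.5 in C4-2B and 5.87, 9.79, 6.70 and 5.84 in MDV-R, so the groups did not overlap. The fitted difference was -1.90 ± 0.29 (SE), with an adjusted p of 0.00226, and the call held in all 13 alternative fits.

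LINC02739 (chr11:59560301-59561101), an intergenic lncRNA on chromosome 11, went the same way. It held 35, 35, 32 and 28 fragments in C4-2B and 9, 13, 12 and 13 in MDV-R. Its fold enrichment differed by -1.57 ± 0.30 (SE; limma adjusted p = 0.00882) while its local background, at 0.31, did not pass (adjusted p = 0.777), and the call held in all 13 alternatives. SCAMP1-AS1 (chr5:78357247-78357711), antisense and upstream of the secretory carrier gene SCAMP1, held 36, 36, 43 and 41 fragments in C4-2B and 15, 19, 20 and 11 in MDV-R. The difference in fold enrichment was -1.51 ± 0.26 (SE; adjusted p = 0.00598), and it was lost only without centring (adjusted p = 0.0531).

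A pair of the lower regions lay next to each other on chromosome 2, in lncRNA genes annotated on opposite strands. Members were assigned without strand, so whether the pair comes from separate transcripts was not tested. MIR3681HG (chr2:12701593-12702810), a microRNA host, held 22, 24, 25 and 28 fragments in C4-2B and 8, 14, 13 and 16 in MDV-R, and ENSG00000286427 (chr2:12703806-12704588) held 36, 46, 34 and 37 against 18, 27, 19 and 13. Their fold enrichments differed by -1.16 and -1.29 (adjusted p = 0.0166 and 0.0161 with limma). The other lower members were ENSG00000286449 (-1.38), ENSG00000289207 (-1.23), LINC02348 (-1.15), RIPK2-DT (-1.06) and NNT-AS1 (-1.02). Of 13 alternatives, the call was lost in 8 for LINC02348, replicate block included, in 7 for RIPK2-DT, in 5 for ENSG00000289207, in 3 for MIR3681HG, in 2 for ENSG00000286427 and in 1 for ENSG00000286449. In 9 of the 10 the local background did not pass in either direction. NNT-AS1 was the exception, with a background higher by 2.13 (adjusted p = 0.00823), IP fragments higher by 0.58 (adjusted p = 0.000754) and a call that was lost in 10 of 13 alternatives. The background cannot go below the library average, and in some of the 9 it lay close to that. In ENSG00000286427 it averaged 1.13 times in C4-2B and 1.11 in MDV-R, so a fall could hardly show. In SCAMP1-AS1 it averaged 3.57 and 3.43 times.

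Of the 3 higher members, ENSG00000224413 (chr21:46038233-46039759), a lncRNA downstream of the collagen gene COL6A1, gained on every measure. It held 16, 24, 17 and 17 fragments in C4-2B and 68, 66, 93 and 73 in MDV-R, at fold enrichments of 9.96 to 18.7 against 34.3 to 51.3. The difference in fold enrichment was 1.19 ± 0.24 (SE; limma adjusted p = 0.0136) and held in all 13 alternatives. Its local background rose as well, by 1.83 (adjusted p = 0.00182), from the lowest value the peak caller allows in C4-2B. In the other 2, ENSG00000291211 (1.18) and ENSG00000290689 (1.08), IP fragments fell, by 0.50 and 0.37, while the local background fell further, by 1.69 and 1.44 (adjusted p = 0.005 and 0.00404). Both lie among the near-identical copies on chromosome 15, so their counts are uncertain. The ends of their summit windows are reverse complements of each other, so these 2 members may not be separate observations.

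**Figure D4:**
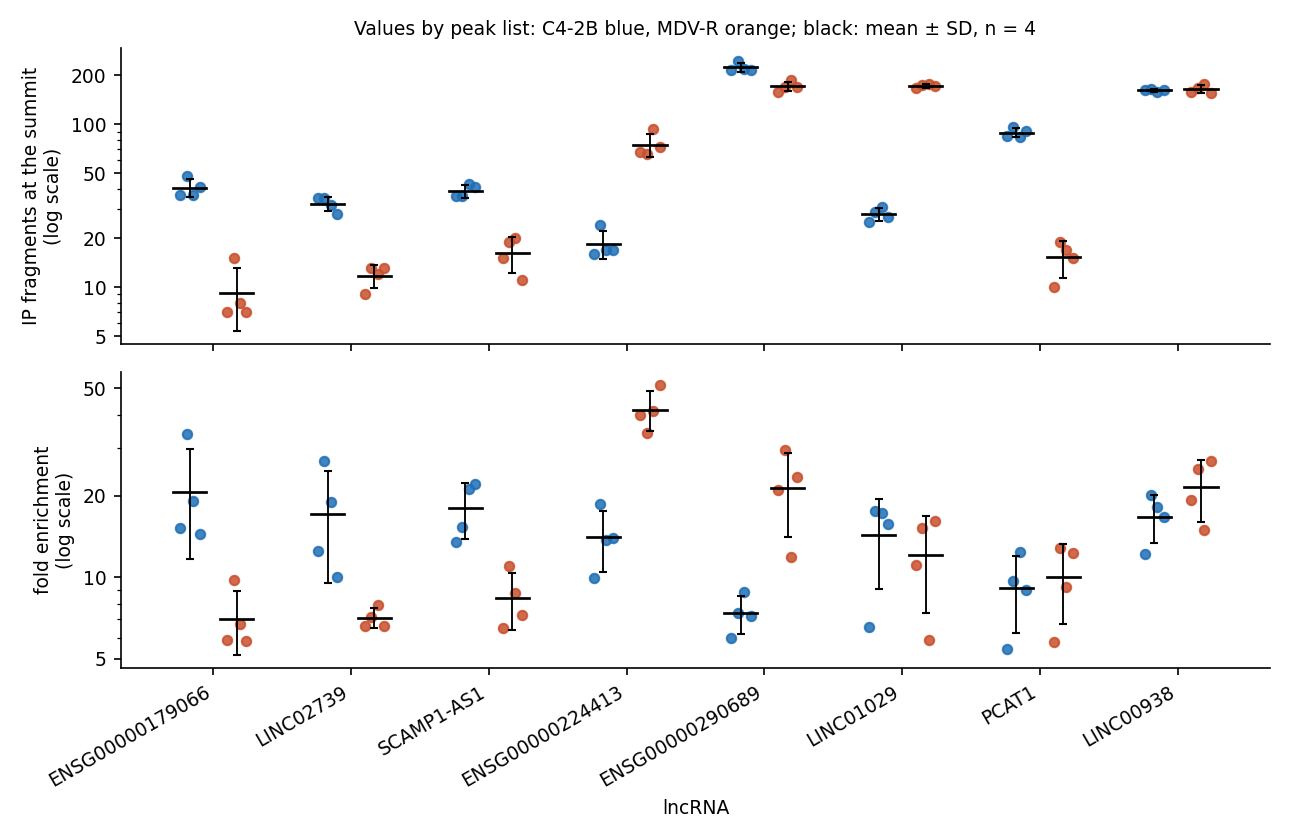
IP fragments at the summit (top) and fold enrichment (bottom), both on a log scale, in each list for 8 members, with C4-2B in blue, MDV-R in orange and the mean ± SD (n = 4) in black. ENSG00000179066, LINC02739 and SCAMP1-AS1 are lower in MDV-R in both panels, whereas LINC01029 and PCAT1 separate by line in fragments and overlap in fold enrichment.

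The IP fragments themselves moved far more often than the fold enrichment. After scaling to depth, 148 of the 472 members (31.4%) were higher and 112 (23.7%) lower in MDV-R with limma, against 24.8% and 25.2% of all regions. Of these, 25 and 17 changed by at least 2-fold. The replicates of a line lay close together, so small differences passed. The local background was higher in 39 members (8.26%) and lower in 23 (4.87%), against 5.86% and 6.74% of all regions. Without centring the direction turned, with 9 higher and 37 lower. Where IP fragments were higher, 32 of 148 members also had a higher local background by the test and none a lower one, and 137 of 148 had the same sign. Where they were lower, the counts were 22 of 112 with none the other way, and 86 shared the sign. For these counts, and for the 25 and 17 above, no share over all regions is given, so they do not set members apart. The signs rest on centred values, where the median difference in background was 0.23 in members and 0.01 over all regions. Whether these differences come from RNA abundance or from methylation was not tested. Nor can fewer cells that express a transcript and less RNA per cell be told apart in these libraries.

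**Figure D5:**
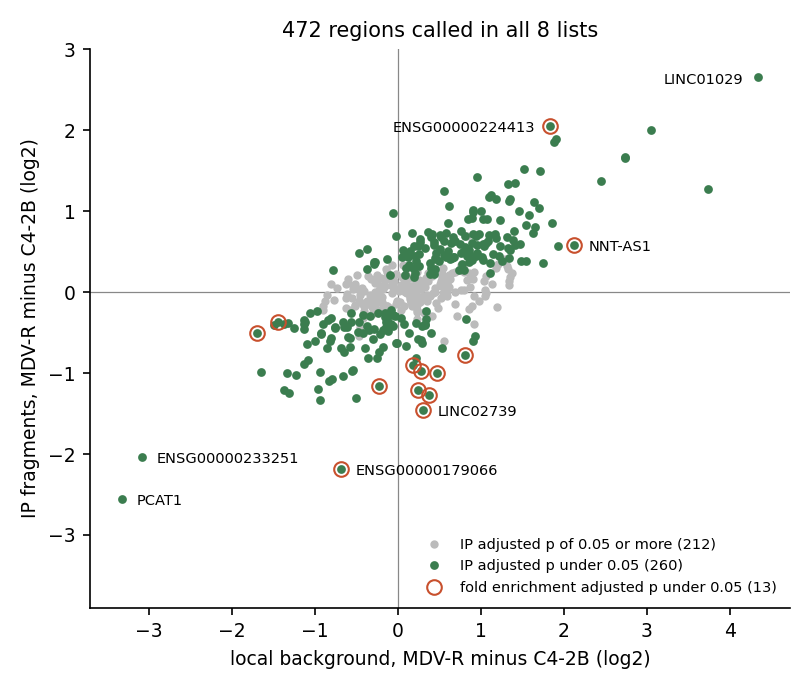
Difference between lines (MDV-R minus C4-2B, log2) in IP fragments against that in local background for the 472 members called in all 8 lists. Green points passed for IP fragments (148 higher, 112 lower), grey points did not, and circles mark the 13 members that passed for fold enrichment; LINC01029 lies at the top right and PCAT1 at the bottom left.

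The 8 largest changes in each direction were chosen for naming after their values were seen. All 8 that rose had a higher local background, which passed in 7 (not in ENSG00000235296), whereas of the 8 that fell it passed only in PCAT1 and ENSG00000233251. Because these regions were picked by their values, this contrast does not describe members as a set. Among all members that passed for IP fragments, the background passed the same way in 32 of 148 that rose and 22 of 112 that fell. LINC01029, an intergenic lncRNA on chromosome 18 (chr18:77971867-77973075), held 25, 29, 31 and 27 IP fragments in C4-2B and 167, 174, 178 and 171 in MDV-R. That is 6.28-fold higher (limma adjusted p = 4.13e-08), and its local background went from 3.54 to 49.7 times the library average. Its fold enrichment differed by -0.64 and did not pass (adjusted p = 0.199). LINC02970 held 20, 23, 24 and 30 fragments in C4-2B and 81, 98, 110 and 91 in MDV-R. ATP2B1-AS1, divergent to a calcium pump gene, held 15, 19, 13 and 10 against 48, 44, 59 and 53. GUSBP1, LINC01512, ENSG00000235296 and ENSG00000264956 were also among the 8 that rose most, by 1.53 to 1.86 on the log2 scale.

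In the other direction PCAT1, a lncRNA on chromosome 8 first described in prostate cancer, held 85, 96, 84 and 91 IP fragments in C4-2B and 10, 19, 17 and 15 in MDV-R. It was 5.89-fold lower (limma adjusted p = 4.54e-07), and its local background fell from 28.5 to 2.15 times the library average. Its fold enrichment was 5.45 to 12.4 in C4-2B and 5.75 to 12.9 in MDV-R and did not pass (-0.27; adjusted p = 0.625). ENSG00000233251 held 109, 102, 101 and 118 fragments against 23, 22, 33 and 26, a 4.11-fold fall, with a background lower by 3.08 (adjusted p = 0.000559) and a fold enrichment that did not pass (adjusted p = 0.705). The other 6 of the 8 were ENSG00000179066 (-2.19), LINC02739 (-1.45), SLC25A25-AS1 (-1.34), ENSG00000247011 (-1.31), SCAMP1-AS1 (-1.27) and ENSG00000289635, as log2 differences in IP fragments.

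Well-known lncRNAs were covered in part. Of 13 nuclear and chromatin lncRNAs, 12 were annotated as lncRNA on these chromosomes, and 5 held 6 members, of which 1 was called in all 8 lists and so could be fitted. NORAD, a cytoplasmic lncRNA that binds PUMILIO proteins, was that region and did not pass for IP fragments (limma adjusted p = 0.814), with 174, 202, 183 and 166 IP fragments in C4-2B and 175, 171, 184 and 169 in MDV-R. MALAT1, an abundant lncRNA of nuclear speckles, had the most fragments, 368, 390 and 359 in C4-2B replicates 2 to 4 and 360, 415, 369 and 340 in MDV-R, yet its fold enrichment was 1.42 to 1.71 and 2.08 to 3.98. Its background averaged 764 and 376 times the library average, and C4-2B replicate 1 had no call there. Duplicate reads had been removed, which limits the counts at such abundant RNAs. NEAT1, the scaffold of paraspeckles, had peaks in 3 lists of C4-2B and 4 of MDV-R, with 104 to 150 and 163 to 185 fragments. CDKN2B-AS1, antisense at the CDKN2A and CDKN2B locus, was called in 4 C4-2B lists and 1 MDV-R list, and HOTTIP, transcribed at the end of the HOXA cluster, in 3 and 0.

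Of 36 snoRNA hosts, 32 were annotated as lncRNA on these chromosomes. Of these, 4 held 6 members, and 2 of those members were called in all 8 lists. SNHG16 held 211, 207, 217 and 220 IP fragments in C4-2B and 182, 184, 186 and 163 in MDV-R (limma adjusted p = 0.0407), with a fold enrichment of 2.78 to 4.58 against 5.76 to 11.9 that narrowly missed the threshold (adjusted p = 0.052). SNHG14, which runs antisense to UBE3A, held 75 to 80 against 50 to 67 at its stronger region (adjusted p = 0.000712). In both, the local background was lower in MDV-R (adjusted p = 0.018 and 0.00977).

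Of a list of 15 prostate lncRNAs, which does not include PCAT1, described above, 3 held 4 members. TMPO-AS1, head to head with the lamina gene TMPO, held 96, 91, 97 and 95 IP fragments in C4-2B and 49, 57, 66 and 43 in MDV-R and fell by 0.81 (limma adjusted p = 5.93e-05), while its fold enrichment, 3.03 to 7.66 against 3.02 to 5.75, did not pass (adjusted p = 0.361). The midpoint of this region lay 204 nt from TMPO and the region reaches into that gene, so the fragments cannot be credited to the lncRNA alone. PCAT6 was called in 1 MDV-R list, and the better covered of 2 regions in DRAIC in 2 C4-2B and 3 MDV-R lists.

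Of 79 microRNA host genes, 16 held 33 members, with 8 called in all 8 lists. For IP fragments 2 of them, MIR762HG and MIR1915HG, were higher and 3, MIR3681HG, MIR4435-2HG and MIR924HG, were lower in MDV-R, counts too small to set apart from the 24.8% and 25.2% of all regions. The counts of MIR4435-2HG are uncertain, because it is the near-identical copy of CYTOR named above. MIR3681HG was the only microRNA host past the threshold for fold enrichment. MIR3667HG held the one region of the 4 gene lists called in every list of a single line, with 18, 26, 27 and 18 fragments in MDV-R and no call in C4-2B. MIR22HG and MIRLET7IHG were called in all 8 lists, with 23 to 29 against 23 to 37 fragments and 28 to 46 against 23 to 40, so that the lines overlapped.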

How the data were processed

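MeRIP-seq libraries were prepared with a SMARTer stranded total RNA kit. According to the labels and methods, the authors used STAR 2.7.0 against hg38 (GENCODE release 39), retained unique alignments and removed duplicates by means of SAMtools 1.10. They ran MACS2 on every IP sample against its input, with model building off, at a stated extension of 100 nt and genome size of 300 Mb. For each peak the deposited lists hold its fold enrichment, a ratio set by IP and local input at the summit, a −log10 p-value and a −log10 q-value. The deposited score column is that −log10 q-value times 10 and was not used. The deposited merged list gives region coordinates only, and how it was merged is not given in the sources used here.

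Midpoints were placed in exons of all GENCODE release 44 transcripts, a later release than the authors'. A region counted as called with at least 1 bp of overlap, and took the values of its strongest peak. Only the midpoint was required to lie in a lncRNA exon, so the summit of that peak could lie elsewhere. In LINC01521 the median summit lay inside a protein-coding gene. The regions of TMPO-AS1, ZNF496-DT and MIR762HG also reached into a protein-coding gene. For the ENSG00000290689 region at chr15:84199718-84200302 the window around it (chr15:84199533-84199633) lay outside the region. IP fragments and local background at each summit were recovered from the fold enrichment and the −log10 p of the deposited peaks; whole fragments solved both values in 99.8% to 100% of peaks per list, at a tolerance of 0.0002 on −log10 p. Peak widths pointed to fragments of 239 to 293 nt in place of the stated extension, so only relative depth is given. Read counts over whole regions were not used here.

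Lists were compared with exact permutation and sign-flip tests. Regions called in all 8 lists were fitted together with limma 3.58.1 (R 4.3.3) on log2 values, with Benjamini-Hochberg adjustment over all regions fitted, no replicate block and a threshold of 0.05. IP fragments were fitted in the same way after scaling to depth. 16 regions called in all 8 lists lacked a recovered value and were left out of the fits. The scripts were tested on simulated data.

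Named were the 10 strongest members called in all 8 lists, the 10 strongest called in a single line per line, up to 8 per direction past the threshold for fold enrichment, the 5 genes with most members and members of 4 gene lists, with 1 region per gene in the first 3. Members and lists were chosen with earlier results of these data known. The largest changes in IP fragments were added after their values were seen. Alternatives were an overlap of 50%, a −log10 q of at least 5, lists of equal length, transcripts tagged basic, no centring, a replicate block, calls in 3 lists per line, other motifs and windows, another comparison set and leaving out each list. Replicate numbers did not pair the libraries: same-numbered lists correlated by -0.08 to 0.02 in their deviations. Counting precision follows the fragments given at each summit, and PCR without molecular identifiers means that they are not independent molecules.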

Additional observations from a re-analysis of the deposited data

Results flagged for a closer look

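Within a line, 112 groups of 4 values were examined for a list far from the other 3, and 11 stood out; chance gives about 1 in 20. 3 of the 11 concern C4-2B replicate 1. It called 588 members, 34.3% of them, where the other C4-2B lists called 987 to 1066, or 57.6% to 62.2%, and its median called member had 33 IP fragments at the summit where the others had 22 to 23. No cause was tested.

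The other 8 concern IP fragments at a single region and are small in absolute terms. In C4-2B, one list held 137 at ENSG00000242588 against 124 to 126 in the others, 24 at ENSG00000286878 against 19, 24 at ENSG00000224413 against 16 to 17, and 62 at ENSG00000247011 against 71. In MDV-R, one list held 32 at ATXN1-AS1 against 39 to 40, 33 at ERVE-1 against 44 to 45, 15 at ENSG00000179066 against 7 to 8, and 10 at ENSG00000286449 against 13. The 3 of these that passed for fold enrichment, ENSG00000224413, ENSG00000179066 and ENSG00000286449, kept non-overlapping IP fragments between lines with that list included.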

How the results depend on the processing

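The number of members called per list was reversed with lists of equal length (-1.75 in place of 187), and the count called in MDV-R alone then fell to 35. The C4-2B-only count ran from 24 to 63 with a list left out, the highest without C4-2B replicate 1, and the difference in member share from -0.42 to -0.19, past the threshold without MDV-R replicate 3. Strength passed at a −log10 q of at least 5 (0.067) and against all other regions (0.12), and recurrence was reversed against all other regions (3.67). With GGACT in place of GGAC the difference between lines turned to -0.56, on the same side of the threshold. For fold enrichment, members higher and lower numbered 14 and 2 without centring and 148 and 112 with IP fragments in its place; 5 were higher with calls in at least 3 lists of each line, and leaving out a list gave 1 to 5 and 4 to 18. For local background they numbered 9 and 37 without centring, and leaving out a list gave 21 to 45 and 11 to 20. With the replicate block they were 25 and 13, and the block moved no other count by over 1.5 times; the exact paired permutation test gave p = 0.125 for members called per list. The excess of GGAC at summits, lower recurrence against coding exons and the counts for IP fragments kept their side in every alternative run on them, apart from the reversal named above. Of the 13 calls for fold enrichment, 3 held in all alternatives (LINC02739, ENSG00000179066 and ENSG00000224413). The causes were not tested. Line-only members had a median of 17 fragments at a summit, against 42 in members called in all 8 lists, and whether depth limits their calls was not tested.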
